A study of Mus musculus with 2 samples.

Results

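The ETS family of transcription factors was described here by 10 genes, Etv5, Etv6, Ets1, Ets2, Elf1, Elf4, Elk3, Fli1, Gabpa and Spi1. They were chosen by name, with earlier results of these data known. Every probe set that the platform annotation assigns to exactly 1 of them was used. This gave 25 of 45037 probe sets and 10 of 18193 named genes. Probe sets are groups of short probes that read the same transcript and are condensed to 1 signal intensity. The signals came from 2 Affymetrix expression arrays on total RNA of mouse CD4 T cells, 1 array for each of 2 cultures. Wild-type CD4 T cells had been sorted magnetically from spleens of C57BL/6 mice at a purity above 98% and stimulated for 2 days through the T cell receptor and CD28 with antibodies. They were harvested after 3 more days. The CD103+ Th1 culture received 3 ng/ml IL-4, 10 ng/ml IFN-γ and 3 ng/ml TGF-β, and the Th1 culture received 1 ng/ml IL-12 and 1 µg/ml of the anti-IL-4 antibody 11B11. CD103 is the integrin chain αE. The study set Th1-type cells made with IL-4 and TGF-β beside conventional Th1 cells. The labels describe no sort for CD103 after culture, so the names stand for whole cultures, and the number of mice behind each is not given in the sources used here.

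With 1 array a group there was no replicate error, no test and no p-value, and "higher" and "lower" compare these 2 arrays only. Culture, RNA preparation and hybridisation each differ along with the group, so differences from these sources cannot be told apart. The median signals were 78.0 and 78.8. A floor was set at the median over both arrays, 78.5 signal units. Where both signals lay below that value no ratio was formed, and where only 1 did the fold is a lower limit, introduced by "at least". A gene is represented by its brightest probe set, by mean log2 signal, among those with a ratio. Every ratio is CD103+ Th1 over Th1. In bulk RNA, fewer cells that express a gene and less RNA per cell cannot be told apart.

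ETS proteins bind DNA through a conserved winged helix-turn-helix domain, the ETS domain, which recognises a GGAA core. Members share that domain and differ in their partners and in the rest of the protein, so that some activate and others repress transcription. In T cells the family is known for genes of T cell identity, cytokine receptors and helper subsets. Etv5, also called ERM, has been described as a Th1 gene induced by IL-12 through STAT4, and Spi1, which encodes PU.1, as a regulator of Il9.

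The sequences before annotated starts are shown for Etv5, Ets2 and Elf1, the 3 members with a listed promoter whose gene value differed by at least 1.5-fold. They are given 5′ to 3′ on the strand of the gene, and capitals mark each GGAA or its complement TTCC, the core that ETS proteins recognise. The RefSeq table of GRCm38.p6 held promoters for 7 of the 10 genes, in 10 windows of 250 bases before a start. Ets1, Fli1 and Spi1 were not matched. The Etv5 windows are chr16:22439571-22439820 and chr16:22438369-22438618 on the minus strand, Ets2 is chr16:95702157-95702406 and Elf1 is chr14:79480944-79481173, both on the plus strand. The Elf1 stretch was shortened to 230 bases to end where the gene record begins, and the second Etv5 window lies inside the gene record, before another annotated start.
Etv5, first start: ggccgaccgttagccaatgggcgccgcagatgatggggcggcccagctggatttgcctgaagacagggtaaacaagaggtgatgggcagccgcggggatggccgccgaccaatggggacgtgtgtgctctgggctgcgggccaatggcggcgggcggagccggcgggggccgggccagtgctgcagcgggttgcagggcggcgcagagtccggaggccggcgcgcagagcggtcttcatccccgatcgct
Etv5, second start: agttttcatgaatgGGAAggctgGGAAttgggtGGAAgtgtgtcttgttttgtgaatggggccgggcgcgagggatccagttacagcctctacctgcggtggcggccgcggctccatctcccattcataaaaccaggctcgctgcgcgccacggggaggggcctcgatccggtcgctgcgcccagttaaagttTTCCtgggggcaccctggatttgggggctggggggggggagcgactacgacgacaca
Ets2: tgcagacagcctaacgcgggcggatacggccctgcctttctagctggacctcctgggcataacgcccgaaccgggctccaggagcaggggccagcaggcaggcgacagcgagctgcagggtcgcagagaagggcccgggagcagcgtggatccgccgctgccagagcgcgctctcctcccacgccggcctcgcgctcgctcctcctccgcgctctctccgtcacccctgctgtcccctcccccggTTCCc
Elf1, first start: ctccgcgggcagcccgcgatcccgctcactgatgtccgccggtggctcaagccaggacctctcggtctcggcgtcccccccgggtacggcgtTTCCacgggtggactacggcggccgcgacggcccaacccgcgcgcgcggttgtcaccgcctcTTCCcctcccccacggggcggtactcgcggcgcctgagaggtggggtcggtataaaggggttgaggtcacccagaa

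The first Etv5 window held 0 GGAA cores on either strand and the second held 4, against 1 for Ets2 and 2 in the Elf1 stretch. Another Elf1 window, inside the gene record and not shown, held 0. Over all 32851 windows of 250 bases in the table, 93.4% held at least 1 core, and the median was 3. The longer ETS sequence CCGGAAG, which contains the core, stood on either strand in 6.91% of all windows and, among the windows of members, only in that of Gabpa, with 1 match, which lies inside the Gabpa gene record. A STAT-type sequence, TTCNNNGAA on either strand, stood in 7.02% of all windows and in none of the 10 windows of members. These counts describe letters in short windows and are no measure of binding.

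Etv5 had the largest difference of the 10 genes. Its brightest probe set read 42.7 in CD103+ Th1 against 718 in Th1, which made it at least 9.16-fold lower in CD103+ Th1. The second probe set had 54.2 and 84.0, at least 1.07-fold lower, and the third 2.65 and 114, at least 1.45-fold lower. All 3 probe sets were under the floor in CD103+ Th1 and above it in Th1, so the bounds differ by how far the Th1 signal stood above the floor. Of 11194 measured genes, 10 had a lower ratio than Etv5, with bounds counted at their limit, so this rank depends on the floor. The size rests on 1 probe set. Without the brightest probe set the log2 ratio was -0.10, and when the floor was raised to the 75th percentile, 472, it was -0.61. Both are bounds, since the CD103+ Th1 signal lay under the floor.

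**Figure D1:**
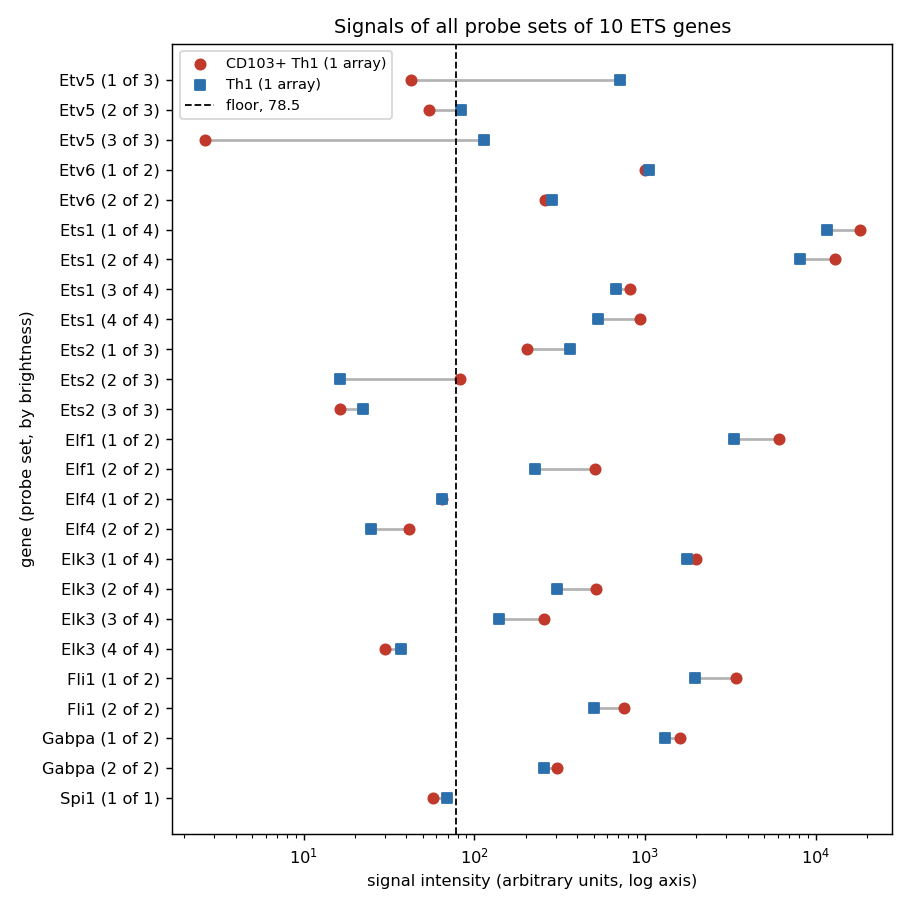
Signal intensity on a log axis (arbitrary units) of all 25 probe sets of the 10 ETS genes, red circles for the CD103+ Th1 array and blue squares for the Th1 array, with the floor of 78.5 dashed and no error bars since each group has 1 array. Etv5 is dimmer in CD103+ Th1 on all 3 probe sets, while all probe sets of Ets1, Elf1, Fli1 and Gabpa are brighter there.

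The closest relatives of Etv5 gave no ratio. Etv4 lay under the floor on both arrays on both of its probe sets. Etv1 has no probe set assigned to it alone and was not analysed here.

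Ets1, a factor needed for normal T cell development and for cytokine production by helper cells, was higher in CD103+ Th1 on all 4 of its probe sets. The brightest read 18126 in CD103+ Th1 against 11623 in Th1, 1.56-fold higher. The other 3 had 12985 against 8107, 821 against 679 and 930 against 530, which are log2 ratios of 0.68, 0.27 and 0.81. Its paralog Ets2 was lower on its brightest probe set. The Ets2 signals there were 203 in CD103+ Th1 against 362 in Th1, 1.78-fold lower. Another Ets2 probe set, of the type that may cross-hybridise, stood just above the floor in CD103+ Th1 (82.1) and under it in Th1 (16.4), at least 1.05-fold higher. The third lay under the floor on both arrays. The direction for Ets2 therefore rests on 1 probe set.

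Fli1, an ETS factor of blood cell lineages that restrains effector differentiation of CD8 T cells, was higher in CD103+ Th1 on both probe sets. Signals were 3439 and 1970 on the brighter, 1.75-fold higher, and 752 and 501 on the other, a log2 ratio of 0.59. Fli1 and Ets1 are neighbouring protein-coding genes on chromosome 9 in the GRCm38.p6 gene table, and both were at least 1.5-fold higher. Ets2 has Erg as its neighbour on chromosome 16, and Erg, the paralog of Fli1, lay under the floor on both arrays.

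Elf1, which is known to act on T cell genes such as Cd247, had the highest ratio of the members. Its brighter probe set read 6061 in CD103+ Th1 against 3308 in Th1, 1.83-fold higher, and the other had 509 and 227, 2.24-fold higher. That second probe set was the only probe set of a member to reach 2-fold in the upward direction. Elf4, a relative linked to quiescence of CD8 T cells, lay under the floor on both arrays. Its signals were 64.4 and 64.9 on 1 probe set and 41.7 and 24.9 on the other. Elf2, which was not among the 10 genes, was 1.62-fold higher in CD103+ Th1 on its brightest probe set, with signals of 1009 and 622, but 1.12-fold higher on the second.

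Elk3 encodes a ternary complex factor, which joins serum response factor at promoters and mostly represses until it is phosphorylated by MAP kinases. Its brightest probe set had 1999 in CD103+ Th1 against 1752 in Th1, 1.14-fold higher. The next had 518 and 306, 1.69-fold higher, and a further one 257 and 140, 1.83-fold higher, while the fourth lay under the floor. All 3 measured probe sets were higher in CD103+ Th1, but the size ranged over 0.68 on the log2 scale. Of its paralogs, Elk4 was 1.94-fold higher on the brightest probe set (3749 against 1936) and 1.17-fold on the second, and Elk1 was 1.47-fold higher on its 1 measured probe set (118 against 80.6), close to the floor.

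Gabpa, the DNA-binding subunit of GA-binding protein, which drives Il7r and many mitochondrial genes, differed little. Signals were 1601 in CD103+ Th1 against 1304 in Th1, 1.23-fold higher, and 303 and 255 on the other probe set, 1.19-fold higher. Etv6, a repressor of the family, was nearly level. Its signals were 996 in CD103+ Th1 against 1050 in Th1 (1.05-fold lower) and 259 and 286 on the other probe set, 1.10-fold lower. Among the other repressors, Etv3 was 1.45-fold lower on its brightest probe set (838 against 1213) with all 3 measured probe sets below 0, and Erf was 1.17-fold higher.

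Spi1 has 1 probe set, which lay under the floor on both arrays, with 57.2 in CD103+ Th1 against 69.7 in Th1. Its relatives Spib and Spic were under the floor as well. Il9, a gene that PU.1 and Etv5 are both known to act on, read 491 in CD103+ Th1 against 36.9 in Th1, at least 6.25-fold higher. Whether either factor acts on Il9 in these cultures was not tested. With the floor at 472 the log2 ratio of Il9 was only a bound, at least 0.06.

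Over the family, 1 of 8 measured members was at least 2-fold lower in CD103+ Th1, Etv5, where 4.87% of all measured genes were. None of the 8 was at least 2-fold higher, against 5.04% of measured genes. At 1.5-fold, Ets1, Elf1 and Fli1 were higher and Etv5 and Ets2 lower. Over all measured genes, 12.4% passed 1.5-fold upward and 13.4% downward. The median log2 ratio of the 8 measured members was 0.24, against -0.03 over all measured genes, with 5 above 0 and 3 below, where 47.4% and 52.6% of all measured genes were. Elf4 and Spi1 do not enter these values.

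**Figure D2:**
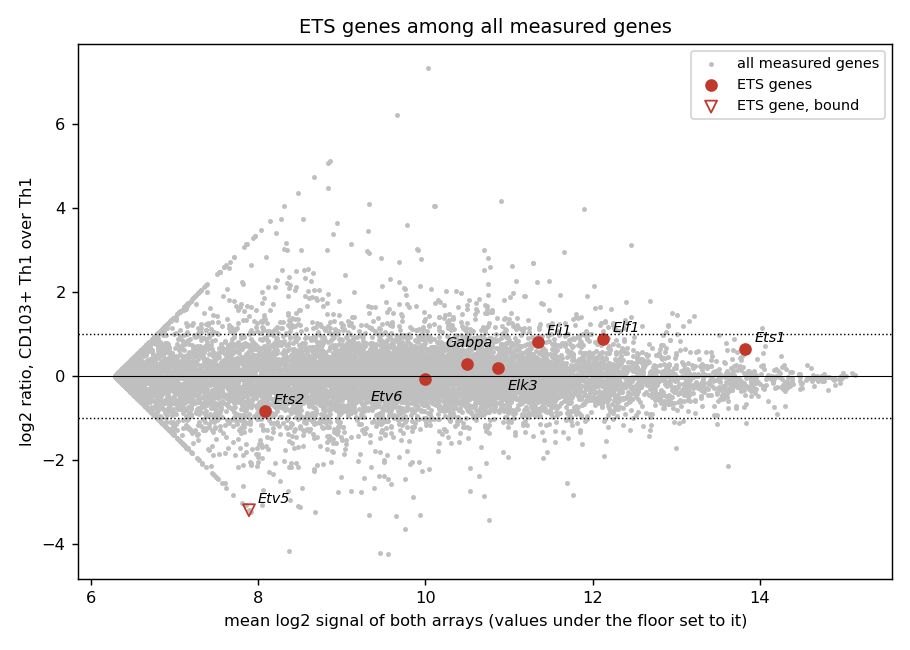
Log2 ratio of CD103+ Th1 over Th1 against the mean log2 signal of both arrays for 11194 measured genes (grey points), with the 8 measured ETS genes in red, the open triangle for Etv5 marking a bound and dotted lines marking 2-fold. Etv5 at -3.19 is the only ETS gene beyond the dotted lines, with Elf1 (0.87), Fli1 (0.80) and Ets1 (0.64) below the upper line.

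By probe set, 20 of the 25 were measured. Of these, 1 reached 2-fold upward and 1 downward, where 5.25% and 3.91% of all measured probe sets were. At 1.5-fold the counts were 9 higher, spread over Ets1, Elf1, Elk3 and Fli1, and 2 lower, against 13.8% and 11.6% of all measured probe sets. Probe sets of 1 gene share its transcript and are not independent, so the 9 stand for 4 genes. The median log2 ratio of the 20 was 0.28, against 0.01 over all measured probe sets, with 14 above 0 and 6 below, where 50.7% and 49.3% of all measured probe sets were.

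How far probe sets of 1 gene differ gave the only measure of error in these data. Among 4666 genes with at least 2 probe sets above the floor on both arrays, the range of their log2 ratios had a median of 0.35 and a 75th percentile of 0.61, and 35.2% of these genes had ratios on both sides of 0. The ranges of members were 0.043 for Gabpa, 0.068 for Etv6, 0.22 for Fli1, 0.29 for Elf1, 0.54 for Ets1 and 0.68 for Elk3, and none of these 6 had ratios on both sides of 0. For Fli1 and Elf1 the smallest ratio of a probe set, 0.59 and 0.87, was larger than this median range. For Fli1 it was under the 75th percentile of the range, 0.61, and for Elf1 above it. For Gabpa, Etv6, Ets1 and Elk3 at least 1 probe set had a ratio within the median range. This spread covers differences between probes and not those between cultures or arrays.

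**Figure D3:**
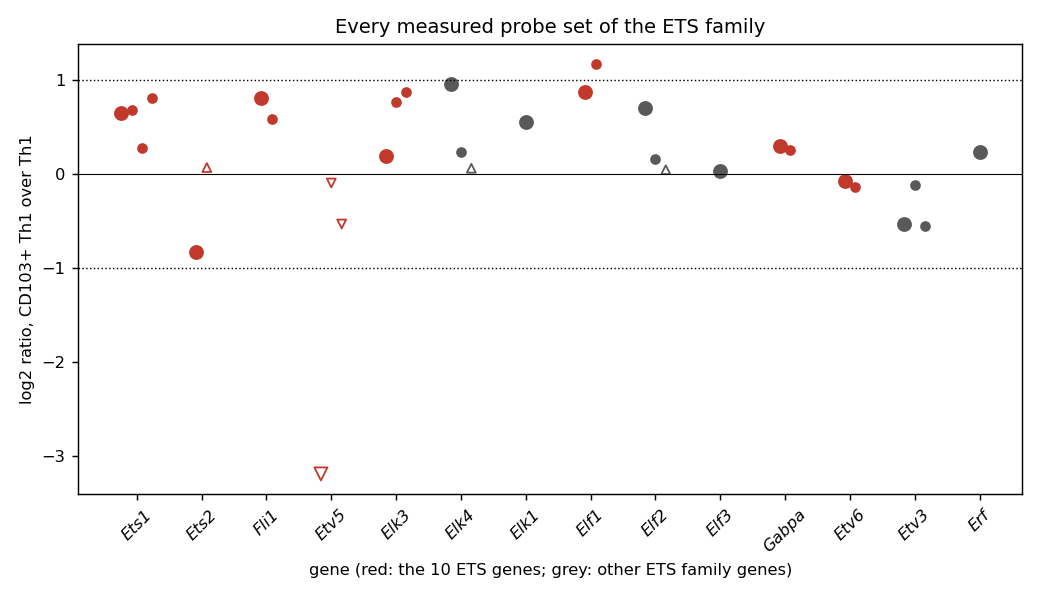
Log2 ratio of CD103+ Th1 over Th1 for every measured probe set of ETS family genes, red for the 10 genes of interest and grey for 6 other family genes, with the probe set of highest mean signal drawn larger and open triangles for bounds. Probe sets of Ets1, Fli1, Elf1, Elk3, Elk4, Elf2 and Gabpa all lie above 0, and those of Etv5, Etv6 and Etv3 all lie below 0.

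The rest of the family was read from a list of 16 further ETS genes, of which 14 had a probe set of their own. Of these, 6 were measured and 8 lay under the floor on both arrays. The measured ones had a median log2 ratio of 0.39, with 5 above 0, and 0 of the 6 reached 2-fold in either direction, where 5.04% of all measured genes did so upward and 4.87% downward. That median was -0.0015 when a pseudocount replaced the floor, which lets all 14 genes count. Of the 6 measured with the floor, only Etv3 was below 0. Elf3, not described above, had 151 in CD103+ Th1 against 147 in Th1, 1.02-fold higher.

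Genes that act with or upstream of ETS factors had ratios on both sides of 0. Of 18 measured DNA-binding partners and cofactors, 2 reached 2-fold upward and 1 downward, beside 5.04% and 4.87% of all measured genes. Their median log2 ratio was 0.24, against -0.03 over all measured genes. Irf8, which pairs with PU.1 on composite sites, was 3.29-fold higher (4925 against 1495) on the brighter of its probe sets and had a mean log2 ratio of 1.22 over both. Jun, an AP-1 subunit that binds beside ETS sites, was 2.97-fold higher (4931 against 1660). The AP-1 genes Fosl2 and Fos were 2.69-fold and 1.94-fold lower. Serum response factor, the partner of Elk3, was 1.05-fold higher, and the partner genes of Gabpa were split, with Gabpb1 1.51-fold lower and Gabpb2 1.48-fold higher. The second Gabpb1 probe set pointed the other way, at 0.14 on the log2 scale.

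The ERK cascade phosphorylates several ETS factors, and Spry and Spred genes encode its feedback inhibitors, which like Etv5 are commonly induced by ERK activity. In this list 3 of 10 measured genes were at least 2-fold lower in CD103+ Th1 and none was as much higher, beside 4.87% lower and 5.04% higher of all measured genes, and the median log2 ratio was -0.17. Ksr1, a scaffold of the cascade, was 3.51-fold lower (254 against 890). Spry1 was 2.07-fold lower (143 against 295), Spry2 at least 2.03-fold lower (49.5 against 159) and Spred1 1.92-fold lower (188 against 360). Other feedback genes differed less, Dusp6 by 1.18-fold lower and Spred2 by 1.16-fold higher. With the floor at 472, the CD103+ Th1 signal of Ksr1 lay under it, so its log2 ratio of -0.91 was only a bound. Spry1 and Spry2 then had no ratio.

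For the IL-12 pathway, which is named above as an inducer of Etv5, 1 of 5 measured genes reached 2-fold, upward, as did 5.04% of all measured genes, and the median log2 ratio was 0.11. The kinase gene Jak2 was 2.61-fold higher in CD103+ Th1, and its probe sets gave log2 ratios of 0.65 and 1.38. Stat4 was 1.74-fold higher (4204 against 2417), the receptor gene Il12rb2 1.49-fold lower (220 against 329) and Tyk2 1.08-fold higher. The cultures differed in IL-12, anti-IL-4, IL-4, IFN-γ and TGF-β at once, so which of these goes with the lower Etv5 signal cannot be told apart.

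Genes known as ETS targets in T cells had ratios on both sides of 0 as well. Of 13 measured, 3 reached 2-fold upward and 4 downward, beside 5.04% and 4.87% of all measured genes, and the median log2 ratio was 0.18. Besides Il9, the higher ones included Klf2, a factor of T cell recirculation (6.17-fold, 5221 against 847). The lower ones included Ifng (10.8-fold, 529 against 5711) and Prf1, which encodes perforin and is a known target of Elf4 (6.36-fold, 146 against 928). With the floor at 472, the log2 ratio of Prf1 was only a bound, -0.98 or lower. Cd247, a target of Elf1, was 1.55-fold higher (7142 against 4603), and Il7r, a target of Gabpa, was 1.26-fold lower (7844 against 9914). These 2 genes were named for their link to Elf1 and Gabpa after their values were seen, as were Srf, Gabpb1, Gabpb2, Dusp6 and Spred2.

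**Figure D4:**
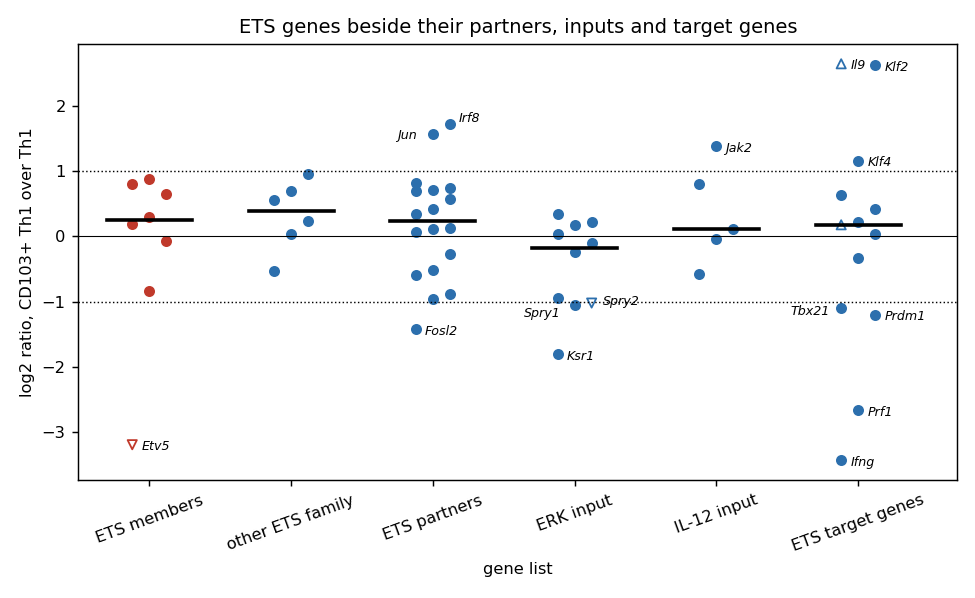
Log2 ratio of CD103+ Th1 over Th1 for the measured genes of 6 lists, 1 point per gene, with a black bar at each list's median, open triangles for bounds, dotted lines at 2-fold and names for genes beyond them. The medians lie between -0.17 for the ERK list and 0.39 for the other ETS family genes, and single genes such as Etv5, Il9, Klf2, Prf1 and Ifng lie far from them.

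Markers of the labelled cell type were present on both arrays. All 7 measured pan T cell genes were above the floor, their summed signals were 58244 in CD103+ Th1 against 53073 in Th1, and Cd4 had 1081 and 973. Several ETS genes are also expressed in other blood cells. Of 14 myeloid markers, 11 lay under the floor on both arrays, among them Lyz2, Itgam, Cd14 and Mpo, and the summed signals were 530 and 851. The measured ones were Cd68 (2.25-fold lower in CD103+ Th1), Csf1r (1.59-fold lower) and Adgre1 (at least 1.01-fold lower). Of 8 B cell markers, 5 were under the floor, Ms4a1, Cd79a, Pax5, Ebf1 and Blnk, and the sums were 8187 and 2784, mostly Ighm with 7712 and 2443. The 4 measured Ighm probe sets had log2 ratios from -0.53 to 1.84. Cd79b was at least 3.11-fold higher in CD103+ Th1 (244 against 75.8), and Cd22 was 1.21-fold higher. The CD8 markers Cd8a and Cd8b1 were above the floor on both arrays, with sums of 3647 in CD103+ Th1 against 1163 in Th1. The 5 measured Cd8a probe sets had log2 ratios from 0.24 to 2.16, so the size of that difference depends on the probe set. The part of B-lineage or CD8-bearing cells in the higher Ets1, Fli1 and Elf1 signals was not tested.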

How the data were processed

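Total RNA of each culture was labelled with biotin and hybridised to 1 array, per the labels' protocols. The deposited values are 1 linear signal intensity per probe set, and GCOS is the software named in the submitters' processing notes, with no version. Neither its scaling target nor a filter is given in the sources used here. Because the trimmed means (2% at each end) were 498 on both arrays, no further scaling was applied. Without detection calls, the floor at the 50th percentile stands in for background, so a value near it says little. The number of arrays limits the precision.

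Of 45037 probe sets, 34945 had 1 gene symbol in the platform annotation, 932 several and 9160 none listed. Symbols were updated by gene identifier to GRCm38.p6, which 34741 matched. Differences at or above 2-fold were counted on the log2 scale beside the same count over all measured genes, with Python 3.11.15, numpy 2.4.6 and pandas 2.3.3. Named genes were all 10 members, each other family gene above the floor and up to 4 genes of each further list with the largest absolute ratio. In the marker lists, defining markers were named outside that rule, after their values were seen. The members and lists were chosen with earlier results of these data known. Of 117 list entries, 13 had no probe set of their own and were not analysed here. The steps were tested on simulated data. The alternatives changed the scaling, the floor, the probe set of a gene and the threshold.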

Additional observations from a re-analysis of the deposited data

How the results depend on the processing

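No paired analysis was possible because each group has 1 array. An alternative value was taken as unmoved within 0.21, the median SD between probe sets of 1 gene (log2), and a count within 1.5 times. Of 71 member ratios under an alternative, 58 were unmoved and 13 moved. Only Etv5 was past 2-fold to begin with, and its sign did not change. Where both signals lie above a changed floor, the ratio stays the same by construction, so such unmoved values carry no information. Ets1, Elf1, Elk3, Fli1 and Gabpa were above 0 and Etv5 and Etv6 below 0 under each of the settings run. Ets2 turned to 0.07, a bound, without the brightest probe set of each gene, an alternative chosen after seeing the data. Setting medians equal or quantile normalization moved no count and no median past these limits.

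With the floor at the 75th percentile, where Etv5 gave only a bound, 0 members were at least 2-fold lower. There, 0 probe sets of members passed in either direction, and the median of the other family genes was 0.70 over 3 genes. With the floor at the 25th percentile, 2 probe sets were lower and 2 higher, and that median was 0.034. With a pseudocount, 2 were lower and 2 higher, and it was -0.0015. The median of the members, then over all 10, was 0.090 under both of these settings. With only probe sets without suffix letters the median of the other family genes was 0.14, and that of the members stayed at 0.24. Without the brightest probe set, 0 members were lower and 1, Elf1, was higher. The median of the other family genes was then 0.16 over 3 genes, and that of the members 0.42. With the mean of all probe sets 1 member was higher, Elf1, at 1.02. With the probe set of largest absolute ratio 1 was higher and the members' median was 0.55. At 1.5-fold, 2 members were lower and 3 higher, and 2 probe sets lower and 9 higher. At 4-fold, 0 probe sets were higher. Low signals limit Etv5, Elf4 and Spi1, which were under the floor on at least 1 array.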
